A study of Mus musculus with 29 samples.

Results

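The transcripts of 6 genes were followed in sorted mouse pro-B cells with and without Pax5: *Tcf3*, *Tcf4* and *Tcf12*, which code for the E proteins E2A, E2-2 and HEB, and *Id1*, *Id2* and *Id3*, which code for their inhibitors. The genes were chosen by name as the members of these 2 protein classes, and each was matched to 1 entry of 24732 in the mm9 tables and to 1 of 25588 in the mm10 tables. RNA-seq values of 8 libraries were used, out of 29 samples in the series, all from C57BL/6 mice and all from cells sorted *ex vivo*: 3 libraries of wild-type (*Pax5*+/+) pro-B cells, 2 libraries of *Pax5*-/- progenitors, and 3 libraries of control pro-B cells that the labels name Pax5(+/+) Meox2-cre. The Meox2-Cre libraries were made from pooled material of mice at the age of 3 weeks, Cre expressed from the *Meox2* locus acts in all tissues, and the list of sequenced samples in the study gives their genotype as Pax5(+/-) Meox2(Cre/+). No age is given in the sources used here for the *Pax5*+/+ and *Pax5*-/- mice. The *Pax5*+/+ pro-B cells and the Pax5-deficient progenitors were both sorted as B220+ Kit+ cells but with different further surface markers, among them the absence of CD2, IgM and IgD for the former and Ly6D for the latter, so genotype and gate cannot be told apart in any difference given here.

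E proteins are basic helix-loop-helix transcription factors that bind as dimers to E boxes, short DNA motifs with the letters CANNTG, and activate genes of early B lymphocytes. Id proteins carry the helix-loop-helix domain but lack the basic DNA-binding region, so that an E protein paired with an Id protein does not bind an E box. E2A is required for the start of the B cell programme, E2-2 is best known from plasmacytoid dendritic cells, Id2 from natural killer and innate lymphoid cells, and Id3 as a gene induced by antigen receptor signals in lymphocytes.

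The sequences just before the start sites of *Tcf3*, *Id2* and *Id3* are shown because these were the 3 genes that passed every criterion of a regulated gene below, the first and the last lower and *Id2* higher in *Pax5*-/- cells. Each line gives 250 bases upstream of the RefSeq transcript start (GRCm38.p6), read 5' to 3' on the strand of the gene, with every E box (CANNTG, whose fixed letters read the same on both strands) in capitals. The windows are chr10:80433636-80433885 (minus strand) for *Tcf3*, chr12:25096093-25096342 (minus strand) for *Id2* and chr4:136143572-136143821 (plus strand) for *Id3*.
Tcf3: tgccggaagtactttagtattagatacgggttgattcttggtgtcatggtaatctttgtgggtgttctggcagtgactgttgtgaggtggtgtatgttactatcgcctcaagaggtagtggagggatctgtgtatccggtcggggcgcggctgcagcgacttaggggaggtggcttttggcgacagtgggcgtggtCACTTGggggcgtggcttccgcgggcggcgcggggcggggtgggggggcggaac
Id2: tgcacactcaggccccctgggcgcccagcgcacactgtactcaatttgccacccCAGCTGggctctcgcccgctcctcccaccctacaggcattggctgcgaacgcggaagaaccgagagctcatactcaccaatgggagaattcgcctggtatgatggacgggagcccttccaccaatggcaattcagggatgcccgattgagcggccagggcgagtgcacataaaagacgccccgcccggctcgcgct
Id3: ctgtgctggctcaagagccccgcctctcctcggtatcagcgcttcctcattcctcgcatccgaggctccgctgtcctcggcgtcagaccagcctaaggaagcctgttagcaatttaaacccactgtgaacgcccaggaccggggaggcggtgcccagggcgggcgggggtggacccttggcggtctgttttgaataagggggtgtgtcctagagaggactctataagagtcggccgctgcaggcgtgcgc

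The *Tcf3* window held 1 E box, CACTTG, 54 to 49 bases upstream of the start. The *Id2* window also held 1, the CAGCTG form, 196 to 191 bases upstream. These letters were not in the *Id3* window. Of the 32851 RefSeq windows of the same length, 66.2% held CANNTG and 13% held CAGCTG, so a match is common and is given as a description only. The 3 windows were alike in base composition, with a GC content of 59.6% for *Tcf3* and 62.8% for both *Id2* and *Id3*. In all, 4 of the 6 genes had a promoter in the table used, and *Tcf4* and *Id1* had none there. *Tcf12* had 3 start sites in that table, of which 1 window held CAGCTG, another held CAAGTG and the third held no E box. In the mm9 annotation of GENCODE (vM1), the gene bodies are on chromosome 10 from 79872259 to 79896392 for *Tcf3*, on chromosome 9 from 71692059 to 71959626 for *Tcf12*, on chromosome 2 from 152561987 to 152563146 for *Id1*, on chromosome 12 from 25778666 to 25780957 for *Id2* and on chromosome 4 from 135699412 to 135701670 for *Id3*.

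All deposited values are TPM, transcript abundances per gene length that sum to 1000000 in every library, and their depth in reads cannot be read from them. Ratios between low values of one gene in different libraries put the relative depth of the *Pax5*+/+ libraries at 1.00 to 1.03 and that of the *Pax5*-/- libraries at 0.853 and 1.55. *Pax5* itself, the deleted gene, was measured at 342 to 391 TPM in *Pax5*+/+ and at 39.1 to 43.0 TPM in *Pax5*-/- cells. In the Meox2-Cre libraries it was at 376 to 397 TPM, and which of their stated genotypes is right was not tested. Among 8 pro-B cell markers, 4 were lower in *Pax5*-/- cells (*Cd79a*, *Vpreb1*, *Igll1* and *Ebf1*), against 21.5% of all genes tested. The markers *Kit*, *Il7r*, *Dntt* and *Ptprc* did not pass the test. The labels do not say that replicates came from separate animals, so p-values measure the spread between these libraries. In bulk RNA, fewer cells of a type and less RNA per cell cannot be told apart.

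Genotypes were compared with limma on log2(TPM + 0.5) over the 12066 genes that averaged more than 1 TPM in either genotype, and on this scale the fold change of a low gene comes out too small. Values are given as TPM and differences as log2 fold changes of *Pax5*-/- minus *Pax5*+/+ cells with their standard error (SE), and adjusted p-values are those of limma after Benjamini-Hochberg adjustment over all genes tested. To be called, a gene had to have an adjusted p-value under 0.05, differ by more than 3-fold and average above 5 TPM in either genotype. All 6 genes passed the filter on low values, *Id1* only through the *Pax5*+/+ libraries. Of the other genes named with a change or a profile below, *Asb2*, *Egr3*, *Gsg1l*, *Bsnd* and *Sbf2* likewise passed the filter only through the *Pax5*+/+ libraries. *Egr2*, *Siglech* and *Cd4* passed it only through the *Pax5*-/- libraries, and a gene that passes in either of these ways had to differ.

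The E proteins and their inhibitors were expressed at very unequal levels in *Pax5*+/+ pro-B cells. *Tcf3* had the highest mean TPM, followed by *Id3*, and both were far above the other 4 genes. *Tcf4* and *Tcf12* came next with overlapping libraries, and *Id1* and *Id2* followed at about 5 TPM, also with overlapping libraries. The loss of Pax5 was accompanied by lower *Tcf3*, *Id3*, *Tcf4* and *Id1* and by higher *Id2*, and *Tcf12* did not pass the test. Of the 6 genes, 4 were lower at an adjusted p-value below 0.05 and 1 was higher, against 21.5% lower and 15.6% higher among all genes tested (37.1% in either direction). At the criteria for a call, 2 were lower (*Tcf3* and *Id3*) and 1 was higher (*Id2*), against 3.15% lower and 2.71% higher among all genes tested (5.86% in either direction). The libraries of the genotypes did not overlap for 5 of the 6 genes, as for 63.4% of all genes tested. The median log2 fold change was −1.21 over the 6 genes and −0.12 over all genes tested. The 4 lower genes and this median include *Id1*, which passed the filter only through the *Pax5*+/+ libraries and so had to differ.

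**Figure D1:**
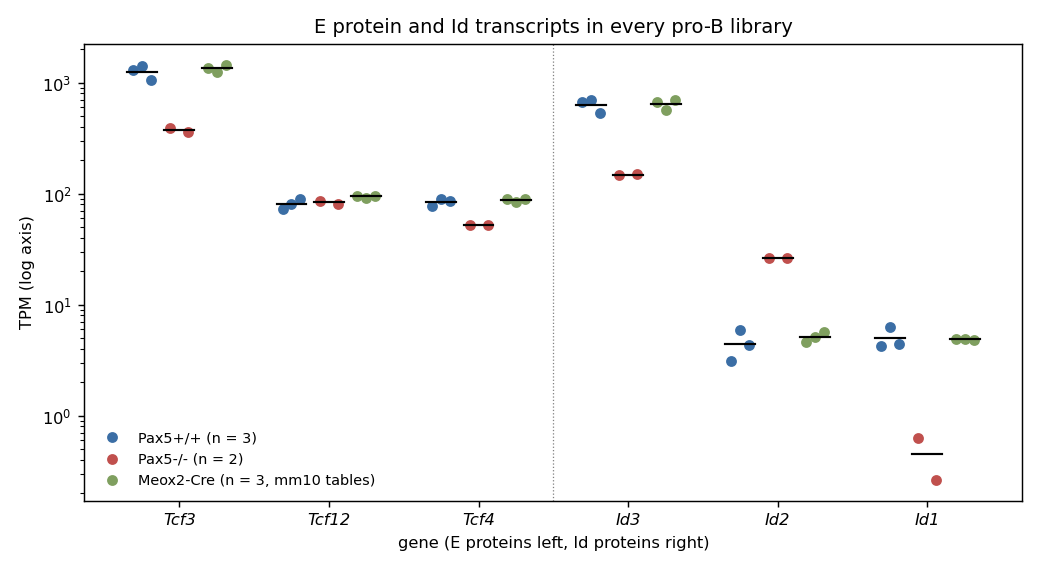
TPM of the 3 E protein genes (left) and the 3 Id genes (right) on a log axis, 1 point per library and a bar at the mean of each group; the Meox2-Cre libraries come from separately made tables. *Tcf3* and *Id3* were lower and *Id2* was higher in both *Pax5*-/- libraries than in all *Pax5*+/+ libraries, and the *Tcf12* libraries overlapped.

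*Tcf3*, which codes for the E2A splice forms E12 and E47, was the most abundant of the 6 transcripts. The *Pax5*+/+ libraries gave 1303, 1417 and 1065 TPM, and the *Pax5*-/- libraries 389.9 and 359.4 TPM. The genotypes did not overlap, with lower *Pax5*-/- values as for 37.4% of all genes tested, and the lowest *Pax5*+/+ value was that of replicate 3. The means were 1261 ± 179 TPM (SD, n = 3) and 374.7 ± 21.6 TPM (SD, n = 2), a ratio of 3.37. The log2 fold change was −1.74 (SE 0.14, 95% confidence interval −2.06 to −1.42, adjusted p = 1.05e-04 by limma). Its place among the 24732 entries ranked by TPM was between 69 and 96 in *Pax5*+/+ and between 402 and 443 in *Pax5*-/- libraries. The E12 and E47 forms share 1 entry and were not separated.

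*Tcf12*, coding for HEB, which can pair with E2A, did not follow *Tcf3*. Its levels were 72.9, 80.9 and 88.8 TPM in *Pax5*+/+ and 86.7 and 80.4 TPM in *Pax5*-/- cells. Both *Pax5*-/- values lay within the range of the *Pax5*+/+ libraries. The log2 fold change was 0.05 (SE 0.12, adjusted p = 0.758 by limma), with a 95% confidence interval from −0.22 to 0.33, and its sign turned to −0.02 without *Pax5*+/+ replicate 1 and to −0.002 without *Pax5*-/- replicate 1.

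*Tcf4*, coding for E2-2, fell less than *Tcf3*. The *Pax5*+/+ values were 78.3, 89.8 and 86.0 TPM and the *Pax5*-/- values 52.3 and 52.4 TPM, without overlap. The log2 fold change was −0.69 (SE 0.11, 95% confidence interval −0.94 to −0.44, adjusted p = 2.62e-03 by limma), short of the 3-fold criterion. Its interval does not reach that of *Tcf3*, although the difference between the 2 changes was not tested. *Tcf4* and *Tcf12* were thus at like levels in *Pax5*+/+ cells, with a *Tcf12* to *Tcf4* ratio between 0.900 and 1.03, and *Tcf12* was the higher of both in *Pax5*-/- cells, with ratios of 1.66 and 1.54. The symbols *Tcf3* and *Tcf4* have also been used for *Tcf7l1* and *Tcf7l2*, genes of Wnt-linked HMG-box factors, but these had entries of their own. *Tcf7l1* had means of 14.9 TPM with and 23.4 TPM without Pax5 (log2 fold change 0.69, adjusted p = 0.0733 by limma), and *Tcf7l2* at 32.1 and 14.4 TPM (log2 fold change −1.12, adjusted p = 3.62e-03 by limma).

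*Id3* was the predominant inhibitor transcript and had the smallest adjusted p-value of the 6 genes. Its levels were 669.9, 700.3 and 531.0 TPM in *Pax5*+/+ and 147.0 and 149.5 TPM in *Pax5*-/- cells. The *Pax5*-/- libraries were close to each other and lay below every *Pax5*+/+ library, of which replicate 3 was again the lowest. The means of 634 ± 90.3 TPM (SD, n = 3) and 148 ± 1.74 TPM (SD, n = 2) differed by a ratio of 4.28, and the log2 fold change was −2.08 (SE 0.13, 95% confidence interval −2.39 to −1.77, adjusted p = 4.17e-05 by limma). Its rank by TPM went from between 183 and 266 to between 1247 and 1306.

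*Id2*, the inhibitor gene best known from innate lymphoid cells, moved the other way. It was measured at 3.09, 5.96 and 4.33 TPM in *Pax5*+/+ cells and at 26.3 and 26.1 TPM in *Pax5*-/- cells. Both *Pax5*-/- libraries were above all *Pax5*+/+ libraries, as for 26.1% of all genes tested. The means were 4.46 ± 1.44 TPM (SD, n = 3) and 26.2 ± 0.154 TPM (SD, n = 2), a ratio of 5.88, and the log2 fold change was 2.47 (SE 0.26, 95% confidence interval 1.87 to 3.07, adjusted p = 4.02e-04 by limma). Even so, *Id2* stayed below *Id3* in *Pax5*-/- cells.

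*Id1* was lower in *Pax5*-/- cells and was the least abundant of the 6 transcripts there. Its values were 4.20, 6.25 and 4.45 TPM in *Pax5*+/+ and 0.634 and 0.263 TPM in *Pax5*-/- cells. The genotypes did not overlap, and the *Pax5*-/- libraries differed more from each other, in proportion, than those of any other of the 6 genes. The means were 4.97 ± 1.12 TPM (SD, n = 3) and 0.449 ± 0.262 TPM (SD, n = 2), and the log2 fold change was −2.54 (SE 0.29, 95% confidence interval −3.22 to −1.85, adjusted p = 6.70e-04 by limma). *Id1* had passed the filter on low values only through the *Pax5*+/+ libraries and so had to differ. With a pseudocount of 0.1 the log2 fold change was −3.27, and with one of 1 it was −2.04. *Id1* was not called, since its mean in *Pax5*+/+ cells lay just under the 5 TPM criterion, and leaving out *Pax5*+/+ replicate 1 or replicate 3 brought it over. *Id4*, the remaining Id gene, was listed at 0.0763 TPM in 1 *Pax5*+/+ library and at 0 in the other *Pax5*+/+ and *Pax5*-/- libraries, and was not tested.

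**Figure D2:**
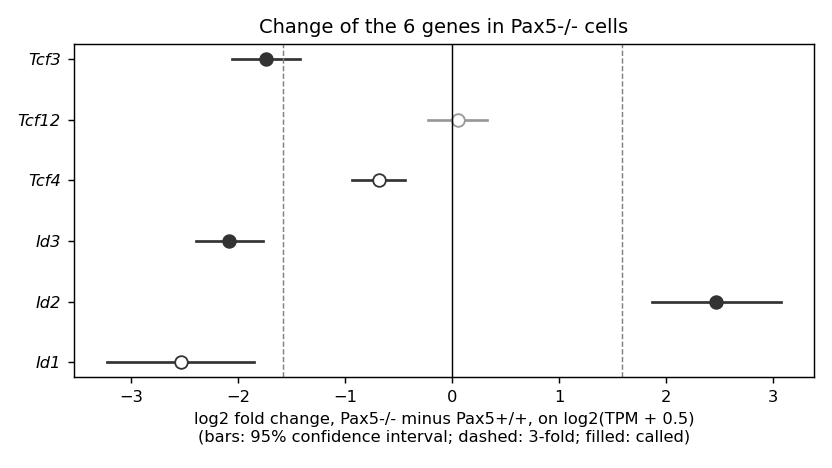
Log2 fold change (horizontal axis, *Pax5*-/- minus *Pax5*+/+, on log2(TPM + 0.5)) of each gene with its 95% confidence interval; dashed lines mark 3-fold, filled points are called genes and the grey point is the gene that did not pass the test. The points of *Tcf3* (−1.74), *Id3* (−2.08) and *Id1* (−2.54) lie below the lower dashed line, *Id2* (2.47) lies above the upper one, and the interval of *Tcf12* spans 0.

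None of the 3 calls held when limma treat was used to ask whether the change itself exceeded 3-fold, which left 0 of the 6 genes called. The intervals of *Tcf3*, *Id3* and *Id2* exclude no change, and that of *Tcf3* includes 3-fold. The lower median of all genes shifts each difference a little, and after rescaling by median ratios, which put that median at −0.003, the log2 fold changes were −1.63 for *Tcf3*, −0.57 for *Tcf4*, 0.17 for *Tcf12*, −1.97 for *Id3*, 2.58 for *Id2* and −2.47 for *Id1*.

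The makeup of both classes differed between the genotypes. Of the summed E protein TPM, *Tcf3* made up 89.6%, 89.3% and 85.9% with Pax5 and 73.7% and 73.0% without it. The share of *Tcf12* was 5.01% to 7.16% in *Pax5*+/+ and 16.3% to 16.4% in *Pax5*-/- cells, while that of *Tcf4* was 5.38% to 6.93% and 9.88% to 10.7%. *Tcf12*, with a level that did not pass the test, thus took a larger share of a smaller sum. Among the Id transcripts, *Id3* made up 98.3% to 98.9% of the sum in *Pax5*+/+ and 84.5% to 85.0% in *Pax5*-/- cells, and *Id2* 0.456% to 0.836% and 14.8% to 15.1%. *Id3* exceeded *Id2* by a factor of 118 to 217 in *Pax5*+/+ libraries and of 5.59 and 5.73 in *Pax5*-/- libraries.

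The sums of both classes were lower in the *Pax5*-/- libraries. The E protein sum was 1454, 1587 and 1240 TPM in *Pax5*+/+ and 528.8 and 492.3 TPM in *Pax5*-/- cells, and the Id sum was 677.2, 712.5 and 539.8 TPM and 174.0 and 175.8 TPM. In each genotype, E protein transcripts therefore outnumbered Id transcripts per length. The ratio of the Id sum to the E protein sum was 0.466, 0.449 and 0.435 in *Pax5*+/+ and 0.329 and 0.357 in *Pax5*-/- libraries. Its range was lower in *Pax5*-/- cells and did not overlap, and no test was made of this sum over the genes. Such a lack of overlap was common, with lower *Pax5*-/- values for 37.4% of the single genes tested. The ratio of *Id3* to *Tcf3* alone was 0.494 to 0.514 in *Pax5*+/+ and 0.377 and 0.416 in *Pax5*-/- libraries. These are ratios of RNA, and protein levels were not measured.

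**Figure D3:**
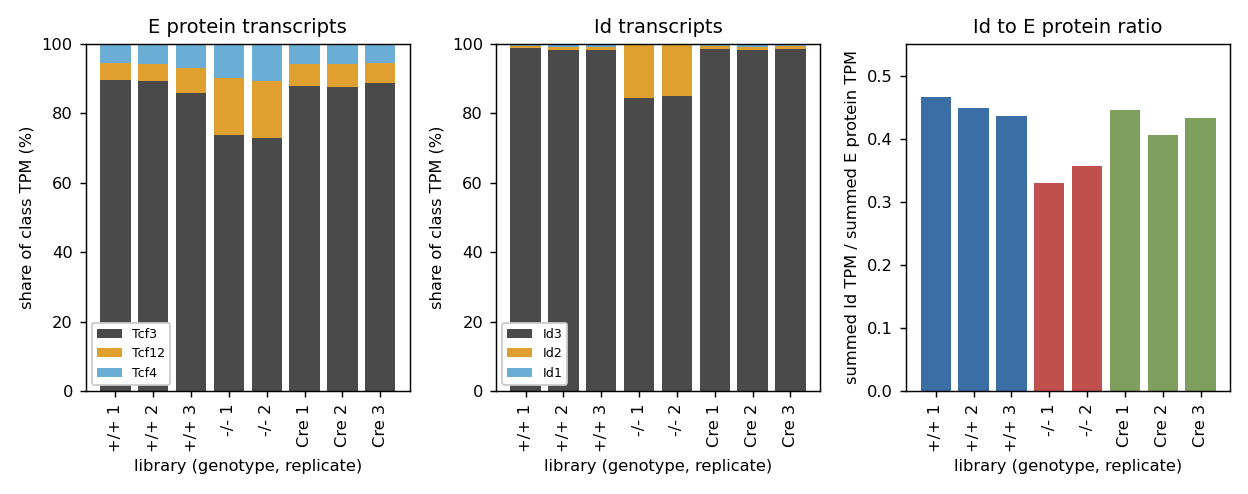
Share of each gene in the summed TPM of its class (left and middle, in %) and ratio of the summed Id TPM to the summed E protein TPM (right), 1 bar per library (+/+, *Pax5*+/+; -/-, *Pax5*-/-; Cre, Meox2-Cre). The *Id2* share reached 14.8% to 15.1% in the *Pax5*-/- libraries, and their Id to E protein ratios of 0.329 and 0.357 are the lowest of the 8 bars.

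The Meox2-Cre pro-B cells were set beside the other libraries without a test, since their reads were aligned to another build with other software. *Tcf3* was measured there at 1343, 1257 and 1451 TPM, *Id3* at 670.4, 571.8 and 698.0 TPM, and *Id2* at 4.59, 5.08 and 5.65 TPM. These 3 genes had values near those of the *Pax5*+/+ cells and apart from those of the *Pax5*-/- cells. *Tcf4* was measured at 89.8, 83.9 and 89.3 TPM, *Tcf12* at 96.2, 92.1 and 95.3 TPM, and *Id1* at 4.95, 4.92 and 4.81 TPM. *Tcf12* was the one gene of the 6 whose Meox2-Cre values all lay above those of the *Pax5*+/+ libraries, by a ratio of the means of 1.17. The Id to E protein ratio was 0.406 to 0.445, and *Tcf3* made up 87.7% to 88.7% of the E protein sum.

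Across the 5 *Pax5*+/+ and *Pax5*-/- libraries, *Tcf3* and *Id3* had the most similar profiles of any pair of the 6 genes. The root mean square difference between their centred log2(TPM + 0.5) values was 0.174, compared with 0.332 for *Id1* and *Id3*, the next pair, and 2.46 for *Id1* and *Id2*, the most distant pair. Among the 11914 other tested genes, the profiles nearest to *Tcf3* were those of *Gsg1l* (0.069) and 3110007F17Rik (0.084). *Gsg1l* was measured at 1.55, 1.80 and 1.37 TPM in *Pax5*+/+ and at 0.113 and 0.125 TPM in *Pax5*-/- libraries. The likeness is therefore one of change on the log2(TPM + 0.5) scale and not of level. On that scale the fold change of a low gene comes out too small. The nearest to *Id3* were *Bsnd* (0.030), which was listed at 0 in both *Pax5*-/- libraries, and *Sbf2* (0.086). *Gsg1l*, *Bsnd* and *Sbf2* had passed the filter on low values only through the *Pax5*+/+ libraries, so each had to differ. *Id2* was nearest to *Pomgnt2* (0.087), a gene of O-mannosyl glycan synthesis, and *Sulf2* (0.121), a heparan sulfate sulfatase. *Id1* was nearest to *Arhgap31* (0.092) and *Hspa12b* (0.115), and *Tcf4* to 2410004B18Rik (0.021) and *Fam96b* (0.034). These distances rest on 5 libraries and mainly on the difference between the genotypes.

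Genes around the E proteins were read from lists of the same pathway, each given by its counts. The mm9 entries of *Tcf7l1*, *Id4*, *Lyl1*, *Notch1*, *Cox6a2*, *Lat* and the globin genes carry a suffix that the sources used here do not explain. Reads shared with another gene therefore cannot be judged for them. Among 13 helix-loop-helix partners and cofactors, 8 were tested, 1 was lower and 2 were higher, 0 were called, and the median log2 fold change was −0.13. Among all genes tested, 21.5% were lower, 15.6% were higher and 5.86% were called. With so few genes these counts are no result about the list. *Lyl1*, a haematopoietic factor that pairs with E proteins, had the highest level of them and overlapped, with a mean of 440 TPM with and 425 TPM without Pax5 (adjusted p = 0.746 by limma). *Lmo2* and *Ldb1*, which bridge such dimers, were the 2 higher genes, with log2 fold changes of 1.05 and 0.45, and *Crebbp*, a histone acetyltransferase, was the lower one at −0.72. *Ep300*, its close relative and like it a coactivator of E proteins, did not pass the test, at a log2 fold change of −0.49 (adjusted p = 0.0725 by limma).

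Most B lineage genes known as E protein targets were lower in *Pax5*-/- cells. Of 14 such genes, all tested, 11 were lower and 0 higher at an adjusted p-value below 0.05, against 21.5% and 15.6% of all genes tested, 5 were called lower, against 3.15% of all, and the median log2 fold change was −1.31. The list holds the deleted gene itself, and several of its genes are also known targets of Pax5. Next to *Pax5* (−3.17), the largest changes of these 14 were those of *Cd79a* (−3.00), the signalling chain of the B cell receptor, and *Blnk* (−2.88), its adaptor. The surrogate light chain genes *Vpreb1* and *Igll1* changed by −2.58 and −2.20, and *Ebf1*, the B lineage factor upstream of *Pax5*, by −1.48 (adjusted p = 3.03e-04 by limma). The 3 genes that did not pass the test were *Dntt* (0.08), coding for terminal transferase, *Vpreb2* (−0.03) and *Il7r* (0.48), the receptor of interleukin-7.

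Of 7 genes linked to E proteins in T lineage cells and in the cell cycle, 6 were tested. Of these, 2 were lower and 2 were higher, against 21.5% and 15.6% of all genes tested, and the median log2 fold change was 0.08. *Notch1*, the receptor that directs T lineage entry, was called higher, from a mean of 97.6 TPM to 361 TPM (log2 fold change 1.89, adjusted p = 1.41e-04 by limma). *Cdkn1a*, the cell cycle inhibitor p21, was called lower, from 104.0 to 21.9 TPM (log2 fold change −2.23). *Cdk6*, a cell cycle kinase that E proteins are known to restrain, rose by 1.10 and *Gfi1* fell by 1.19 on the log2 scale, while *Hes1*, a Notch target, had a log2 fold change of 0.07 and did not pass the test.

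Of 13 genes whose products feed into Id gene transcription, 12 were tested, 3 were lower and 1 was higher, and the median log2 fold change was −0.10. These counts are near the 21.5% lower and 15.6% higher of all genes tested, so they are no result about the list. The lower genes included *Egr1* and *Egr3*, zinc finger factors known to induce *Id3* after receptor signals. *Egr1* was measured at 16.2, 24.4 and 20.4 TPM in *Pax5*+/+ and at 4.34 and 3.92 TPM in *Pax5*-/- cells, and was called lower (log2 fold change −2.15, adjusted p = 2.92e-04 by limma). *Egr3* was near 0 in *Pax5*-/- cells, at a mean of 0.0289 TPM against 2.87 TPM, whereas *Egr2* was the higher gene, at 2.19 against 0.307 TPM (log2 fold change 1.74), and each of both had passed the filter only through the genotype where it was high. *Tgfbr2*, a TGF-beta receptor chain, fell by 1.02 on the log2 scale. Smad factors carry or restrain BMP and TGF-beta signals to Id genes, and none of the 5 tested here passed the test, with *Smad4* at a mean of 45.7 and 46.6 TPM.

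Among 4 genes that act on the turnover of E or Id proteins, 2 were lower and 0 higher, against 21.5% and 15.6% of all genes tested. The median log2 fold change was −0.64. *Asb2*, a ubiquitin ligase subunit linked to the breakdown of E2A, was called lower, from 50.8, 55.5 and 35.1 TPM to 0.165 and 0.0914 TPM (log2 fold change −6.22), and had passed the filter only through the *Pax5*+/+ libraries. *Skp2*, the F-box protein of another ubiquitin ligase, fell by 0.92 on the log2 scale. *Usp1*, a deubiquitinase known to stabilise Id proteins, and *Fzr1* did not pass the test, with log2 fold changes of −0.36 and −0.28.

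**Figure D4:**
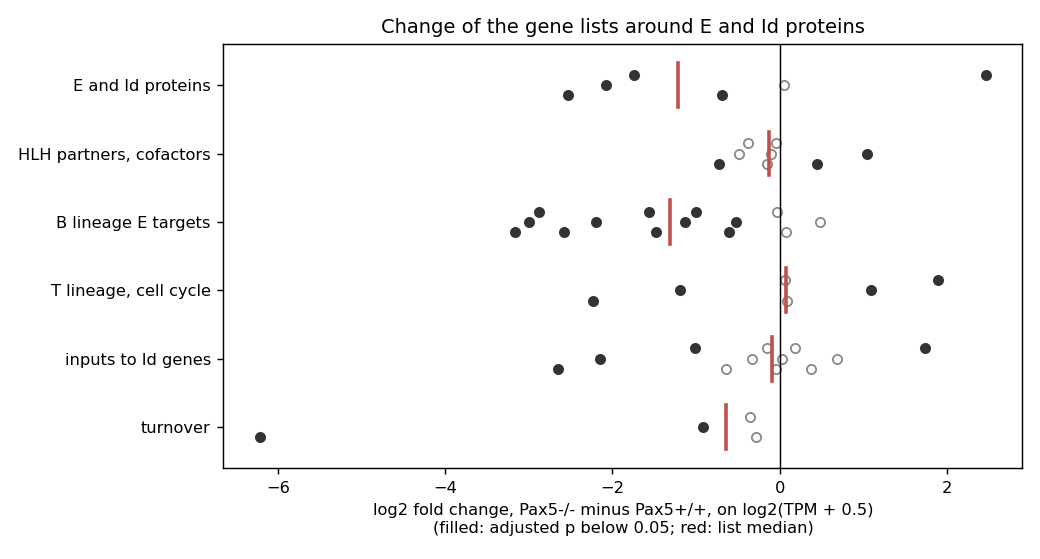
Log2 fold change (horizontal axis, *Pax5*-/- minus *Pax5*+/+, on log2(TPM + 0.5)) of every tested gene of each list (rows), 1 point per gene; filled points have an adjusted p-value below 0.05 and red bars mark the median of the list. Among the lists plotted, the B lineage targets have the lowest median (−1.31), next to −1.21 for the E and Id genes themselves, and the partners and cofactors lie closest to the median of all genes (−0.12).

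Transcripts of other cell types differed between the libraries and are given beside the results for *Id2*, *Tcf4*, *Id1* and *Id3*. For *Id2*, the summed TPM of 9 natural killer and innate lymphoid markers was 4.44 to 15.7 in *Pax5*+/+ and 21.5 to 25.8 in *Pax5*-/- libraries. Only 3 of these were tested: *Nkg7*, a granule gene, was higher (log2 fold change 2.31), *Klrb1c* was lower (−1.69) and *Il2rb* did not pass the test. The defining *Ncr1*, *Eomes*, *Tbx21*, *Zbtb16*, *Rora* and *Gata3* were all under 1 TPM in every *Pax5*+/+ and *Pax5*-/- library. The part of the *Nkg7* transcripts in the *Id2* result was not tested.

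For *Tcf4*, the summed TPM of 8 plasmacytoid dendritic cell markers was 833 to 914 in *Pax5*+/+ and 330 to 462 in *Pax5*-/- libraries. Most of this sum came from *Spib*, with means of 533.8 and 150.5 TPM, and *Irf8*, with means of 237.1 and 59.4 TPM. Of the 6 tested, *Cox6a2* (log2 fold change 2.57), *Siglech* (2.20) and *Pacsin1* (1.92) were called higher, *Irf8* (−2.06) and *Spib* (−1.82), which B cells express too, were called lower, and *Bst2* (0.46) did not pass the test. Among all genes tested, 2.71% were called higher and 3.15% lower. *Siglech*, which passed the filter only through the *Pax5*-/- libraries, stood there at 1.79 and 9.06 TPM. The part of plasmacytoid dendritic cell transcripts in the *Tcf4* result was not tested. For 8 T cell markers the sum was 44.5 to 99.9 TPM in *Pax5*+/+ and 106.5 to 106.8 TPM in *Pax5*-/- libraries. Only 3 of these were tested. *Cd4* (2.38), which passed the filter only through the *Pax5*-/- libraries, and *Tcf7* (0.92) were higher, against 15.6% of all genes tested. *Lat* (0.31) did not pass the test, and *Cd3d*, *Cd3e*, *Cd3g*, *Cd8a* and *Bcl11b* were under 1 TPM.

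Erythroid and some myeloid transcripts were lower in *Pax5*-/- cells, as were *Id1* and *Id3*. The summed TPM of 6 erythroid markers was 15.3, 40.7 and 45.3 in *Pax5*+/+ and 8.80 and 5.57 in *Pax5*-/- libraries. All 3 tested (*Klf1*, *Epor* and *Gata1*) were called lower, against 3.15% of all genes tested. The globin genes were listed at or near 0, and reads shared with another gene cannot be judged for them. The sum of 7 myeloid markers was 45.9, 252 and 192 TPM in *Pax5*+/+ and 55.4 and 83.7 TPM in *Pax5*-/- libraries, with *Elane* called lower (log2 fold change −3.10) and *Itgam* lower (−1.22). The other 5 myeloid markers did not pass the test, among them *Mpo*, which lay above every *Pax5*+/+ library in both *Pax5*-/- libraries (log2 fold change 1.02, adjusted p = 0.0811 by limma). *Pax5*+/+ replicate 1 had the lowest sum of both lists among the *Pax5*+/+ libraries. In *Pax5*+/+ replicates 1, 2 and 3, *Id1* was 4.20, 6.25 and 4.45 TPM and *Id3* was 669.9, 700.3 and 531.0 TPM. The part of erythroid and myeloid transcripts in the changes of *Id1* and *Id3* was not tested.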

How the data were processed

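After removal of ribosomal RNA reads, the authors aligned the *Pax5*+/+ and *Pax5*-/- libraries to mm9 with TopHat (1.4.1a) and the Meox2-Cre libraries to mm10 with STAR (2.4.2a), counted reads per gene with featureCounts (1.5.0) on refGene annotations and deposited TPM values (tool versions from the submitters' processing notes). The authors tested read counts with DESeq2. Here the deposited TPM, which carry no depth in reads, were tested by limma (version 3.58.1, R 4.3.3; lmFit and trended eBayes, no covariates) on log2(TPM + 0.5), using genes that averaged more than 1 TPM in either genotype, with the authors' thresholds for calls and without immunoglobulin and T cell receptor genes among the calls. The fit was checked on simulated data with changes larger than 3-fold planted only in well-expressed genes. That check does not cover low genes such as *Id1*. With 3 against 2 libraries an exact permutation test cannot give a p-value below 0.1, so none is given. Groups came from the labels, and the replicate numbers only name the libraries.

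The 6 genes and all gene lists were chosen with earlier results of these data known. Named by rule were the 6 genes, up to 4 called genes of each list with the largest change and 2 further genes with the highest mean, the 2 nearest profiles of each gene past the test, *Pax5*, *Tcf7l1* and *Tcf7l2*. The other list genes, among them *Id4*, *Lmo2*, *Crebbp*, *Ep300*, *Ebf1*, *Dntt*, *Vpreb2*, *Il7r*, *Gfi1*, *Egr2*, *Egr3* and *Skp2*, were chosen after their values were seen. Promoter windows are those of RefSeq for GRCm38.p6. The alternatives were other pseudocounts, filters, scalings, eBayes settings and thresholds, and leaving out each library in turn. Some genes of the lists are not reported here and were left out of the counts, medians and sums of their lists. ChIP-seq samples were not used here. Python 3.11.15 with pandas 2.3.3, numpy 2.4.6 and matplotlib 3.10.9 served for summaries and plots.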

Additional observations from a re-analysis of the deposited data

How the results depend on the processing

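A 2-fold threshold gave 753 genes lower and 630 genes higher in *Pax5*-/- cells, instead of 380 and 327, and the limma treat test against 3-fold gave 153 and 118, with 0 of the 6 E protein and Id genes called instead of 3. Leaving out 1 library in turn gave 306 to 461 lower and 284 to 336 higher genes, 5 genes of the 6 past an adjusted p-value of 0.05 in each case, and 3 to 4 called, where the added gene was *Id1* without *Pax5*+/+ replicate 1 or replicate 3. Leaving out a *Pax5*-/- library leaves a lone one, which is assumed to vary like the *Pax5*+/+ libraries. *Tcf12* reversed its direction in 2 of these 5 fits, at −0.021 without *Pax5*+/+ replicate 1 and −0.002 without *Pax5*-/- replicate 1, and reached 0.12 in the others, at adjusted p-values of 0.407 to 0.994 by limma. In the same fits the log2 fold change ranged from −1.86 to −1.65 for *Tcf3*, from −2.20 to −2.01 for *Id3*, from −0.74 to −0.64 for *Tcf4*, from −2.82 to −2.25 for *Id1* and from 2.26 to 2.68 for *Id2*, with a highest adjusted p-value of 0.0449, that of *Tcf4*, by limma. A filter at 5 TPM leaves *Id1* untested by its construction. The other alternatives tried left these 5 genes on the same side of the threshold. No paired analysis was possible because no label numbers the replicates of either genotype. Depth is unknown, so no floor can be set for the 0.263 to 0.634 TPM of *Id1* in *Pax5*-/- cells.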
